A study of Homo sapiens with 16 samples.

Results

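The knockdown cells of 6T-CEM, followed from day 5 to day 10, are the subject here. 6T-CEM is an established human T-cell acute lymphoblastic leukaemia line, and sh-SH2D1A is a short hairpin RNA directed against SH2D1A. The members were taken by their labels alone, as the 2 day 10 and the 2 day 5 libraries of 6T-CEM with sh-SH2D1A, joined by Ensembl gene identifier, which makes 4 of the 16 libraries of the series. Messenger RNA was profiled in 8 groups of 2 libraries, in 2 leukaemia lines with sh-SH2D1A or the control hairpin sh-NC. The 2 day 10 and 2 day 5 libraries of 6T-CEM with sh-NC served to show where the knockdown cells moved differently. The labels call the cells transfected, and they give neither the event from which days are counted nor whether the 2 libraries of a group come from separate cultures, so the p-values measure the spread between these libraries, which may be technical. Day 10 and day 5 were deposited as separate tables, and a difference between days cannot be told apart from one between the preparation or the sequencing of the tables.

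SH2D1A encodes SAP, a small adaptor made of a single SH2 domain. In T and natural killer cells it binds the phosphorylated tails of receptors of the signalling lymphocyte activation molecule (SLAM) family and recruits the kinase FYN. It lies on the X chromosome, and its loss causes X-linked lymphoproliferative disease. CHI3L2, a chitinase-like secreted protein without enzymatic activity, is named beside it in the title of the series.

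Total counts were 30921714 and 31876720 at day 10 and 28972395 and 27217899 at day 5, so that a gene at 0 could still have up to 3 counts, which is 0.0941 to 0.110 counts per 1000000 counts of a library (CPM) and covers counting error only. Levels are given as CPM scaled by the trimmed mean of M values (TMM) and are not divided by length. Mitochondrial messages made up 6.50 and 6.13% of the counts at day 10 and 7.98 and 9.19% at day 5. The 2 day 5 knockdown libraries stood further apart than any other pair of the series, as a chi-square test over genes gave 24.6 per degree of freedom there and 5.01 to 10.2 in the other 7 pairs. Within that pair the median log2 ratio of replicate 1 to replicate 2 was -0.24 for genes of at most 40% GC and 0.39 for genes over 60% GC, and within the day 10 pair it was -0.01 and 0.01. The change between days also followed base composition, as the plot of changes by GC content shows. The median log2 change from day 5 to day 10 was -0.85 for the 263 genes of at most 35% GC and 0.78 for the 702 genes over 65% GC, and in sh-NC cells -0.82 and 0.47. A further fit, chosen after the data were seen, therefore took out of each library its smooth dependence on transcript length and GC content; its values are called those with the offsets, and they are given wherever a call ended or a fold moved by more than 1.5 times.

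**Figure D1:**
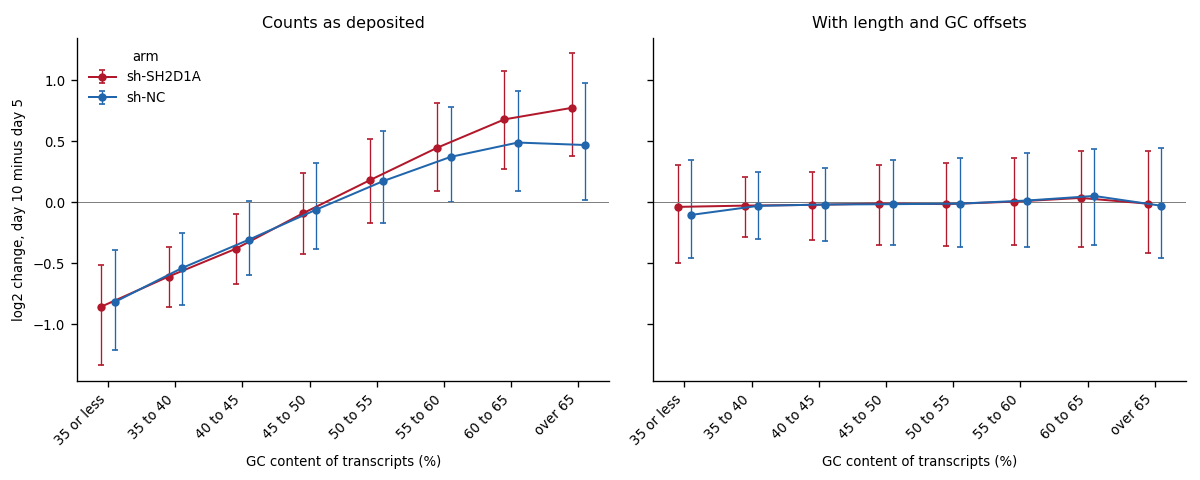
Median log2 change from day 5 to day 10 (vertical axis) by the GC content of a gene's transcripts (horizontal axis), in sh-SH2D1A and sh-NC 6T-CEM. Points are medians over genes and whiskers the quartiles. On the counts as deposited the sh-SH2D1A medians climb from -0.85 to 0.78, and with the length and GC offsets they lie between -0.04 and 0.04.

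The label of a T lineage was checked against markers, which cannot tell 6T-CEM from another T-cell leukaemia line. All 11 T lineage and leukaemia markers were tested, with a summed level of 2556 and 2536 CPM at day 10 and 2602 and 2639 CPM at day 5. Markers of natural killer cells summed to 8.29 and 9.52 CPM at day 10 and 8.45 and 8.55 CPM at day 5, and KLRF1, NCR1, KLRC1 and KIR2DL4 were at 0 in the 4 knockdown libraries. Myeloid markers summed to between 2.07 and 2.999 CPM, with S100A8 at 0, and B cell markers to 36.6 and 32.5 CPM at day 10 and 28.02 and 23.2 CPM at day 5. Epithelial and packaging cell markers summed to 13.4 and 12.6 CPM at day 10 and 13.7 and 9.97 CPM at day 5, and erythroid markers to 16.5 and 14.3 CPM at day 10 and 11.1 and 10.3 CPM at day 5, with HBB and HBG1 at 0.

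The targeted gene was still low at day 10 but less so than at day 5. SH2D1A (ENSG00000183918, chrX:124227868-124373197 in hg38) was at 83.2 and 76.6 CPM at day 10 and 55.9 and 62.3 CPM at day 5 in sh-SH2D1A cells, against 159 and 157 CPM at day 10 and 189 and 201 CPM at day 5 in sh-NC cells. The 2 arms did not overlap on either day. The knockdown mean was 50.5% of the control mean at day 10 and 30.3% at day 5. Within the knockdown cells SH2D1A rose, with both day 10 libraries above both day 5 libraries (log2 change 0.43 ± 0.12, edgeR adjusted p = 0.0268). That call was lost without day 10 replicate 1 (edgeR adjusted p = 0.349), without day 10 replicate 2 (0.187) and without the filter on low counts (0.0602), and with the offsets the log2 change was 0.76 (edgeR adjusted p = 0.000279). SH2D1A shares exons on its strand with TEX13D, so reads there cannot be assigned to 1 of them.

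In sh-NC cells SH2D1A fell over the same days (log2 change -0.29 ± 0.05, edgeR adjusted p = 0.00275, against -0.10 and 0.0661 with the offsets). The difference between the arms, sh-SH2D1A minus sh-NC, was 0.74 ± 0.12 on the log2 scale and missed the threshold (edgeR adjusted p = 0.108). It passed with DESeq2 (adjusted p = 0.00021), with all 16 libraries in the edgeR fit (0.0181) and with the offsets (0.00106). Without day 5 knockdown replicate 1 the difference was 0.62, and without replicate 2 it was 0.82. Either of these fits leaves 1 library in that group, so the spread of this widest pair does not enter.

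CHI3L2 (ENSG00000064886, chr1:111200771-111243440) was at 111 and 111 CPM at day 10 and 116 and 130.3 CPM at day 5 in sh-SH2D1A cells, against 212 and 207 CPM at day 10 and 348 and 341 CPM at day 5 in sh-NC cells. The knockdown level was 52.8% of the control mean at day 10 and 35.8% at day 5. In the knockdown cells the change between days did not pass the test (log2 change -0.16 ± 0.11, edgeR adjusted p = 0.288). With all 16 libraries in the fit it passed as a fall (log2 change -0.20, edgeR adjusted p = 0.0209), and without day 5 replicate 1 the log2 change was -0.24. In sh-NC cells CHI3L2 fell (log2 change -0.71 ± 0.05, edgeR adjusted p = 2.76e-05), and its knockdown level stayed below both control levels. The difference of the changes was 0.56 ± 0.10 (edgeR adjusted p = 0.126). It passed with DESeq2, with all 16 libraries in the edgeR fit and with the offsets, with adjusted p between 0.00341 and 0.0125.

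**Figure D2:**
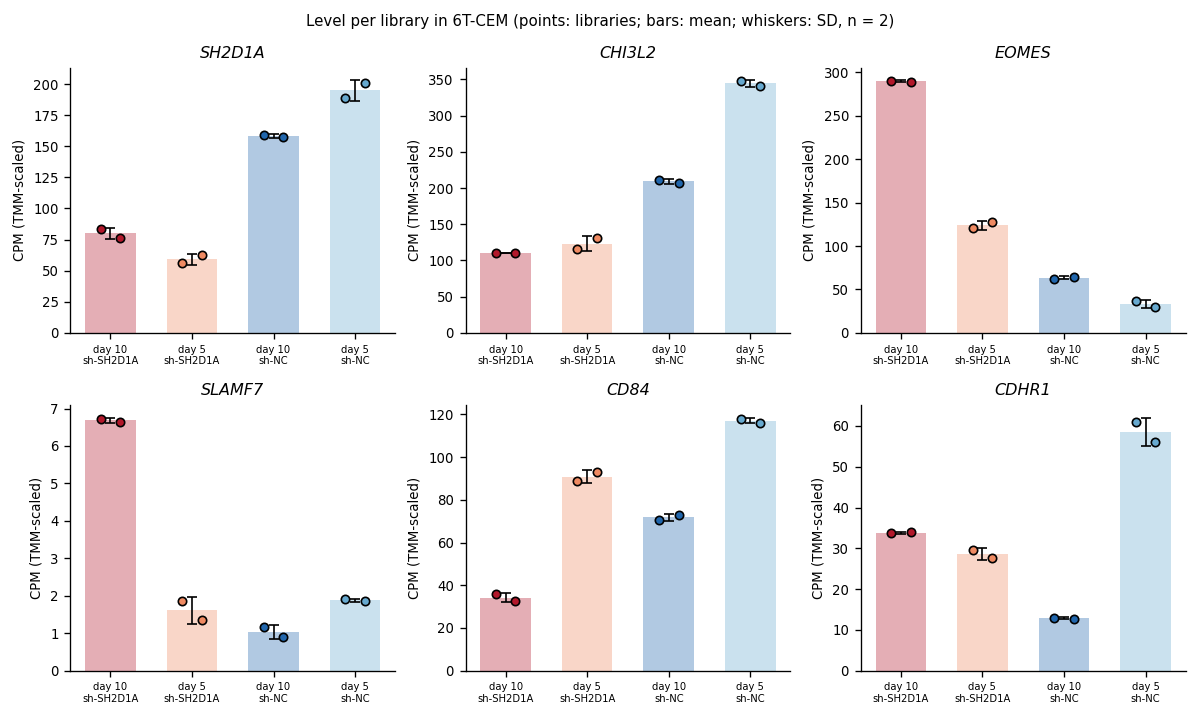
TMM-scaled CPM (vertical axes) of 6 genes in the 4 groups of 6T-CEM. Points are libraries, bars means and whiskers SD (n = 2). EOMES and SLAMF7 are highest in the day 10 sh-SH2D1A libraries, SH2D1A and CHI3L2 are lower in both sh-SH2D1A groups than in the sh-NC group of the same day, and CDHR1 is near 30 CPM in sh-SH2D1A cells on both days.

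Across the genome the knockdown cells differed widely between the days. Of 19674 genes tested, 3721 were higher at day 10 (18.9%) and 3286 lower (16.7%) at an edgeR adjusted p under 0.05, and 1471 of the higher (7.48% of genes tested) and 809 of the lower (4.11%) changed by at least 2-fold. The median log2 change over all genes was 0.01. With the offsets 3358 genes were higher (17.1%) and 2655 lower (13.5%), and 3822 of the 7007 calls, or 54.5%, were kept in the same direction. The counts of calls were 2040 higher and 977 lower without day 10 replicate 1, and 6022 higher and 5249 lower without day 5 replicate 1. Most of the movement was shared with the control cells, whose libraries are separate. Of the 7007 calls, 5588 were also called in the same direction in sh-NC cells, which is 79.7% of the knockdown calls and 63.4% of the 8808 control calls (44.9% of 19620 genes), and 23 were called in opposite directions. Across 18872 genes the log2 changes of the arms had a Pearson correlation of 0.70, or 0.61 with the offsets, and both arms share the tables of their days.

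Genes of sugar metabolism and of the response to low oxygen fell together. In low oxygen the hypoxia-inducible factors, which are degraded when oxygen is present, bind the core motif ACGTG or GCGTG and raise transcription of glucose transporters, glycolytic enzymes and enzymes that shape collagen. In the list of glycolysis and hypoxia genes, 18 of 37 tested members fell and 2 rose, with a median log2 change of -0.41, and with the offsets 2 were higher and 27 lower, with a median of -0.64. Over all genes tested 18.9% were higher and 16.7% lower, and with the offsets 17.1% and 13.5%. The sequences of 3 promoters of the genes that fell most are shown because they carry this motif. Each is the 250 bases before the RefSeq gene start (GRCh38.p14, minus strand, written 5′ to 3′), with every ACGTG or GCGTG on either strand in capitals.
ALDOC, chr17:28576896-28577145: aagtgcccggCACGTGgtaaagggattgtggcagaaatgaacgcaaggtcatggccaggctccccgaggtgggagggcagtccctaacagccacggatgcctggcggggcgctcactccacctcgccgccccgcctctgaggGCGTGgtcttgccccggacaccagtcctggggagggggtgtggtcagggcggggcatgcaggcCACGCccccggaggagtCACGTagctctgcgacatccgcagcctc
P4HA1, chr10:73096867-73097116: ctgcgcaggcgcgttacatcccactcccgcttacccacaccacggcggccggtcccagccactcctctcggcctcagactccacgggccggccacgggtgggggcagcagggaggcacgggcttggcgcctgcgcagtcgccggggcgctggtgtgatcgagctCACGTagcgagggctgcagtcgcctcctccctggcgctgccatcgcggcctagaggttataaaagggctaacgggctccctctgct
GBE1, chr3:81761646-81761895: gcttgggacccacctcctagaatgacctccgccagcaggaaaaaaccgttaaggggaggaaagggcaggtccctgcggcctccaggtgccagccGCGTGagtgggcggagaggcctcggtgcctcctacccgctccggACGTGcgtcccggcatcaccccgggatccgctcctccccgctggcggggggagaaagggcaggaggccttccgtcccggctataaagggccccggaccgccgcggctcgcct
The ALDOC window holds 4 separate stretches of the motif, in one of which the matches of both strands overlap as CACGTG, the P4HA1 window 1, the GBE1 window 2 and the PDK1 window none. Of the 33 list members with a promoter in the table, 21 (63.6%) hold the motif in this window, against 56.0% of the 11878 promoters of genes tested.

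ALDOC, an aldolase of glycolysis, was at 8.07 and 8.097 CPM at day 10 and 59.8 and 48.99 CPM at day 5. ALDOC fell, with a log2 change of -2.75 ± 0.16 (edgeR adjusted p = 0.000248). All day 5 libraries lay above all day 10 libraries, and so they did for the genes that follow. The rule that named these genes, CA9 apart, required this, so it is no further evidence. P4HA1, which hydroxylates prolines of collagen, was at 29.7 and 28.8 CPM at day 10 and 118 and 124 CPM at day 5. P4HA1 fell, with a log2 change of -2.05 ± 0.11 (edgeR adjusted p = 0.000242). PDK1, the kinase that keeps pyruvate out of the mitochondrion, was at 19.8 and 17.6 CPM at day 10 and 66.9 and 70.8 CPM at day 5. PDK1 fell, with a log2 change of -1.89 ± 0.13 (edgeR adjusted p = 0.000495). GBE1, the glycogen branching enzyme, was at 16.9 and 15.1 CPM at day 10 and 52.5 and 56.3 CPM at day 5. GBE1 fell, with a log2 change of -1.77 ± 0.14 (edgeR adjusted p = 0.000789). BHLHE40, a repressor that hypoxia and activation induce, was at 2.42 and 3.25 CPM at day 10 and 11.6 and 11.5 CPM at day 5. BHLHE40 fell, with a log2 change of -2.03 ± 0.24 (edgeR adjusted p = 0.00201). CA9, a carbonic anhydrase widely used as a hypoxia marker and named here after its values were seen, was at 0.383 and 0.371 CPM at day 10 and 8.48 and 4.91 CPM at day 5. CA9 fell, with a log2 change of -4.14 ± 0.39 (edgeR adjusted p = 0.00118). The same genes were also lower at day 10 in sh-NC cells, where 31 of 38 list members fell, beside 22% of all genes tested there (22.9% rose).

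The other large falls were of genes outside that list. CD40LG, the CD40 ligand of helper T cells, was at 1.63 and 1.95 CPM at day 10 and 10.2 and 11.9 CPM at day 5. CD40LG fell, with a log2 change of -2.63 ± 0.25 (edgeR adjusted p = 0.00114). SLC14A1, a urea transporter, was at 7.78 and 9.15 CPM at day 10 and 32.5 and 35.05 CPM at day 5. SLC14A1 fell, with a log2 change of -1.999 ± 0.16 (edgeR adjusted p = 0.000824). LGMN, the lysosomal protease legumain, was at 32.9 and 28.96 CPM at day 10 and 114 and 116 CPM at day 5. LGMN fell, with a log2 change of -1.90 ± 0.12 (edgeR adjusted p = 0.000381). LEPR, the leptin receptor, was at 5.07 and 3.89 CPM at day 10 and 14.2 and 17.1 CPM at day 5 (log2 change -1.81 ± 0.23, edgeR adjusted p = 0.00229, against a log2 change of -1.14 with the offsets), and it shares exons with LEPROT. EVI2B, a membrane protein of blood cells, was at 3.795 and 4.36 CPM at day 10 and 13.1 and 15.1 CPM at day 5. EVI2B fell, with a log2 change of -1.79 ± 0.21 (edgeR adjusted p = 0.00205), against a log2 change of -1.19 with the offsets. CMAHP, the human relic of the enzyme that makes the sialic acid Neu5Gc, had a log2 change of -1.82 ± 0.21, and TDRD9, a tudor domain helicase of the germ line, -1.67 ± 0.24 (edgeR adjusted p = 0.00184 and 0.00301).

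Growth genes rose together. MYC, the transcription factor that drives ribosome production, was at 319.9 and 321 CPM at day 10 and 176 and 154 CPM at day 5. MYC rose, with a log2 change of 0.95 ± 0.11 (edgeR adjusted p = 0.00172). Of the list of MYC targets that assemble ribosomes, 24 of 34 members rose and 0 fell, with a median log2 change of 0.72, and with the offsets all 34 were higher, with a median of 0.71. In sh-NC cells 33 of 34 rose and 0 fell, with a median of 0.87. Over all genes tested 22.9% rose and 22% fell in sh-NC cells, and 18.9% and 16.7% in knockdown cells. RRS1, a factor of the large ribosomal subunit, was at 27.01 and 28.7 CPM at day 10 and 7.84 and 6.56 CPM at day 5. RRS1 rose, with a log2 change of 1.95 ± 0.17 (edgeR adjusted p = 0.000979). NHP2, of the particles that guide pseudouridine into ribosomal RNA, was at 88.5 and 83.5 CPM at day 10 and 35.7 and 28.04 CPM at day 5. NHP2 rose, with a log2 change of 1.43 ± 0.15 (edgeR adjusted p = 0.00142). PES1, of the complex that matures the large subunit, was at 165 and 159 CPM at day 10 and 77.8 and 65.6 CPM at day 5. PES1 rose, with a log2 change of 1.17 ± 0.12 (edgeR adjusted p = 0.00142). RRP9, of the small subunit processome, was at 42.6 and 49.05 CPM at day 10 and 18.4 and 17.4 CPM at day 5. RRP9 rose, with a log2 change of 1.36 ± 0.14 (edgeR adjusted p = 0.00148), against a log2 change of 0.74 with the offsets. All day 10 libraries of these 5 genes lay above all day 5 libraries. The rule that named these genes ranked them by the same comparison, so this is no further evidence. The E-box CACGTG, to which MYC binds, stood in 2 of 27 promoter windows of this list (7.41%), against 8.78% of the promoters of genes tested.

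Ribosomal protein genes rose as well. Of 78 members 61 rose and 2 fell, with a median log2 change of 0.67, and with the offsets 63 were higher and 3 lower, with a median of 0.51. In sh-NC cells 71 of 78 rose and 2 fell, with a median of 0.78. Over all genes tested 22.9% rose and 22% fell in sh-NC cells, and 18.9% and 16.7% in knockdown cells. The summed level of the list in knockdown cells was 35867 and 35122 CPM at day 10 and 23349 and 23098 CPM at day 5. RPL38 was at 142 and 135 CPM at day 10 and 20.2 and 19.04 CPM at day 5. RPL38 rose, with a log2 change of 2.82 ± 0.12 (edgeR adjusted p = 0.000155). RPL36 was at 335 and 342 CPM at day 10 and 52.2 and 41.98 CPM at day 5. RPL36 rose, with a log2 change of 2.84 ± 0.13 (edgeR adjusted p = 0.000155), against a log2 change of 2.07 with the offsets. RPL37A was at 287 and 289 CPM at day 10 and 54.01 and 56.7 CPM at day 5 (log2 change 2.37 ± 0.10, edgeR adjusted p = 0.000155), and RPS21 was at 227 and 224 CPM at day 10 and 44.8 and 46.4 CPM at day 5. RPS21 rose, with a log2 change of 2.30 ± 0.10 (edgeR adjusted p = 0.000155). Both RPL13 and RPS2, among the abundant genes with the largest gain in CPM, were more than 2-fold higher, at 973 and 997 CPM at day 10 and 439.9 and 304 CPM at day 5 for RPL13 and 1271 and 1230.4 CPM at day 10 and 664 and 432 CPM at day 5 for RPS2 (log2 change 1.40 ± 0.16 and 1.19 ± 0.18, edgeR adjusted p = 0.00195 and 0.0035, against log2 changes of 1.01 and 0.52 with the offsets). Ribosomal protein genes have many processed copies in the genome, and reads may be split between them.

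Other abundant genes also gained. YBX1, a protein that packs messenger RNA, was at 1197 and 1166 CPM at day 10 and 718 and 635 CPM at day 5 (log2 change 0.80 ± 0.10, edgeR adjusted p = 0.00205), and HSPA8, the constitutive HSC70 chaperone, at 1459.8 and 1402 CPM at day 10 and 859 and 948 CPM at day 5. HSPA8 rose, with a log2 change of 0.66 ± 0.09 (edgeR adjusted p = 0.00281). EEF2, the translocase of translation, was at 1609.8 and 1607 CPM at day 10 and 1167 and 912 CPM at day 5. EEF2 rose, with a log2 change of 0.63 ± 0.12 (edgeR adjusted p = 0.00753), against 0.10 and 0.0633 with the offsets. ACTB, cytoplasmic actin, was at 4396 and 4342 CPM at day 10 and 3816 and 3603 CPM at day 5 (log2 change 0.23 ± 0.08, edgeR adjusted p = 0.0471), and its direction turned with the offsets (-0.19, edgeR adjusted p = 0.018). The ACTB call was also lost without the filter (0.103), with DESeq2 size factors (0.0635), with the DESeq2 test (0.0974) and without either day 10 library (0.429 and 0.391, all adjusted p).

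Genes that supply building blocks were counted next. In nucleotide and polyamine synthesis 14 of 28 members rose and 3 fell, with a median of 0.31, against 16 and 6 with a median of 0.38 in sh-NC cells. Over all genes tested 22.9% rose and 22% fell in sh-NC cells, and 18.9% and 16.7% in knockdown cells. PFAS and CAD, of purine and pyrimidine synthesis, were at 157 and 163 CPM at day 10 and 74.3 and 58.1 CPM at day 5 and at 225 and 237 CPM at day 10 and 138 and 106 CPM at day 5 (log2 change 1.27 ± 0.14 and 0.92 ± 0.14, edgeR adjusted p = 0.00159 and 0.00339). SRM, spermidine synthase, was at 89.9 and 90.5 CPM at day 10 and 37.6 and 32.4 CPM at day 5 (log2 change 1.36 ± 0.13, edgeR adjusted p = 0.00104, against a log2 change of 0.61 with the offsets), and SHMT2, which feeds one-carbon units from serine, at 146 and 138 CPM at day 10 and 78.00 and 59.1 CPM at day 5. SHMT2 rose, with a log2 change of 1.05 ± 0.15 (edgeR adjusted p = 0.00282). Of the amino acid response genes driven by ATF4, 20 of 34 rose and 1 fell, with a median of 0.42, against 23 and 3 with a median of 0.60 in sh-NC cells. The large neutral amino acid transporter SLC7A5 was at 516 and 545 CPM at day 10 and 225 and 179 CPM at day 5 (log2 change 1.39 ± 0.13, edgeR adjusted p = 0.00104), and its partner chain SLC3A2 at 194 and 187 CPM at day 10 and 93.6 and 74.6 CPM at day 5. SLC3A2 rose, with a log2 change of 1.18 ± 0.13 (edgeR adjusted p = 0.00172). SLC1A5, a glutamine transporter, was at 188 and 189 CPM at day 10 and 79.2 and 53.3 CPM at day 5. SLC1A5 rose, with a log2 change of 1.51 ± 0.18 (edgeR adjusted p = 0.00201).

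Chaperones and sterol genes rose in part. Among genes of the heat shock and unfolded protein responses 13 of 31 rose and 3 fell, and with the offsets 18 were higher and 1 lower. In sh-NC cells 15 rose and 4 fell. Over all genes tested 22.9% rose and 22% fell in sh-NC cells, and 18.9% and 16.7% in knockdown cells. HYOU1, a chaperone of the endoplasmic reticulum, was at 302 and 308 CPM at day 10 and 177 and 164 CPM at day 5 (log2 change 0.84 ± 0.10, edgeR adjusted p = 0.002), and SDF2L1, of the same compartment, at 32.8 and 30.3 CPM at day 10 and 7.84 and 4.46 CPM at day 5. SDF2L1 rose, with a log2 change of 2.35 ± 0.26 (edgeR adjusted p = 0.00165), against a log2 change of 1.52 with the offsets. Of cholesterol and fatty acid synthesis genes 16 of 32 rose and 2 fell, with a median of 0.38, against 15 and 11 with a median of 0.06 in sh-NC cells. PMVK and MVK, successive kinases of the mevalonate pathway, had log2 changes of 2.33 ± 0.22 and 1.07 ± 0.17 (edgeR adjusted p = 0.00113 and 0.00408), and LSS, which closes the sterol rings, 0.91 ± 0.13 (edgeR adjusted p = 0.00282). FASN, fatty acid synthase, was at 293 and 313 CPM at day 10 and 183 and 133 CPM at day 5. FASN rose, with a log2 change of 0.94 ± 0.15 (edgeR adjusted p = 0.00423), against a log2 change of 0.25 with the offsets.

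The messages of the respiratory chain split by genome. Of the 13 protein-coding messages of the mitochondrial genome 8 fell and 1 rose, with a median of -0.43, whereas of 49 nuclear subunit genes 26 rose and 2 fell, with a median of 0.42. With the offsets the counts were 8 lower and 3 higher for mitochondrial messages and 31 higher and 5 lower for nuclear ones. In sh-NC cells, without the offsets, they were 7 lower and 3 higher for mitochondrial messages and 32 higher and 2 lower for nuclear ones. Over all genes tested 22.9% rose and 22% fell in sh-NC cells, and 18.9% and 16.7% in knockdown cells. MT-CO1, a subunit of cytochrome c oxidase, was at 12525 and 11822 CPM at day 10 and 18675 and 22116 CPM at day 5 (log2 change -0.75 ± 0.09, edgeR adjusted p = 0.00219), and MT-ND4, of complex I, at 6808 and 6139 CPM at day 10 and 10349 and 12745 CPM at day 5. MT-ND4 fell, with a log2 change of -0.84 ± 0.11 (edgeR adjusted p = 0.00255). MT-ND2 was at 2403 and 2225 CPM at day 10 and 3577 and 4412 CPM at day 5. MT-ND2 fell, with a log2 change of -0.79 ± 0.11 (edgeR adjusted p = 0.0029). MT-ND3, also of complex I, went the other way, at 759 and 744 CPM at day 10 and 287 and 328 CPM at day 5. MT-ND3 rose, with a log2 change of 1.29 ± 0.10 (edgeR adjusted p = 0.000822). The calls of MT-CO2 (-0.47 ± 0.11, edgeR adjusted p = 0.0161), MT-ATP6 (-0.51 ± 0.11, edgeR adjusted p = 0.0103) and MT-CO3 (-0.43 ± 0.08, edgeR adjusted p = 0.00547) were lost without day 10 replicate 2 (edgeR adjusted p = 0.0831, 0.0625 and 0.108), that of MT-CO3 also without day 10 replicate 1 (0.079), and those of MT-CO2 and MT-ATP6 without the filter on low counts (0.082 and 0.0596).

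The nuclear subunits with the lowest adjusted p come from 3 complexes. NDUFS6, of complex I, was at 39.6 and 40.7 CPM at day 10 and 8.24 and 4.99 CPM at day 5. NDUFS6 rose, with a log2 change of 2.59 ± 0.23 (edgeR adjusted p = 0.00102). UQCRQ, of complex III, was at 57.3 and 55.3 CPM at day 10 and 17.5 and 19.2 CPM at day 5. UQCRQ rose, with a log2 change of 1.61 ± 0.13 (edgeR adjusted p = 0.000824). COX8A and COX7C, of cytochrome c oxidase, were at 127 and 130.4 CPM at day 10 and 45.4 and 36.5 CPM at day 5 and at 106 and 98.2 CPM at day 10 and 37.05 and 43.1 CPM at day 5 (log2 change 1.65 ± 0.13 and 1.35 ± 0.13, edgeR adjusted p = 0.000824 and 0.00115, against 1.04 and 1.68 with the offsets).

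**Figure D3:**
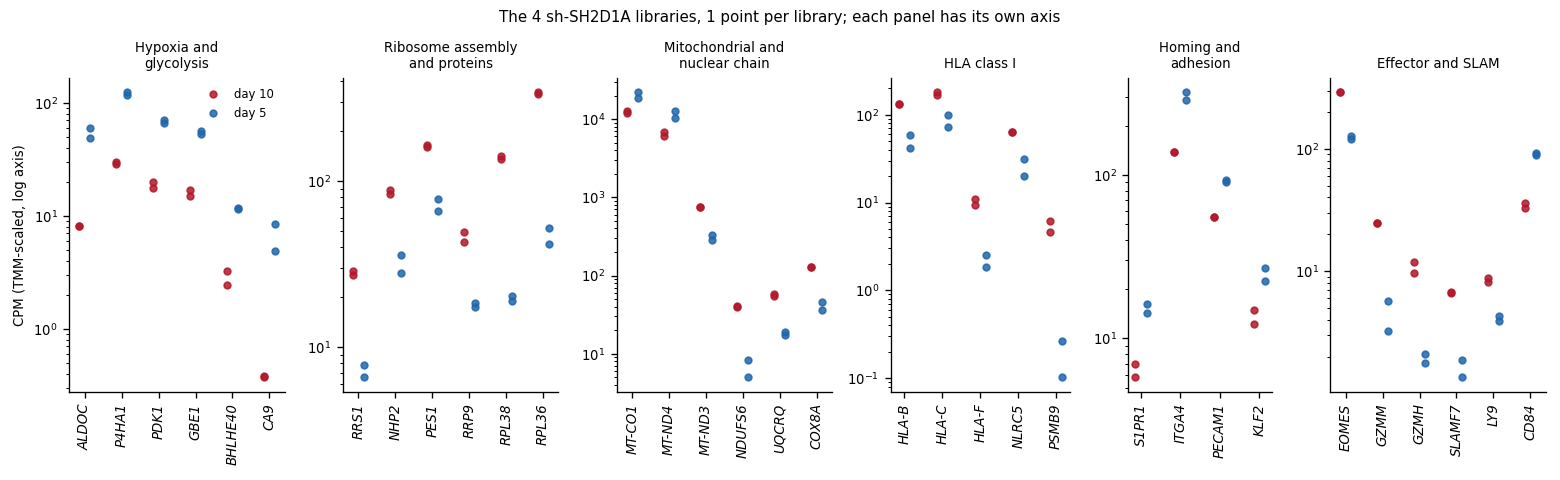
TMM-scaled CPM on log axes (vertical) of named genes in the 4 sh-SH2D1A libraries, with day 10 libraries to the left of day 5 libraries for each gene and 1 point per library. The 6 hypoxia genes lie lower at day 10 and the 6 ribosome genes higher, for example ALDOC at 8.07 and 8.097 against 59.8 and 48.99 CPM.

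The 12 largest fold rises include pseudogenes, genes with close copies and genes that share exons with a neighbour. ZNF497, a zinc finger gene, had 671 and 737 counts at day 10 and 0 counts in both day 5 libraries, which is at least 206-fold higher when 3 counts are set as the floor of each library. ZNF497 was also at 0 counts in both day 5 sh-NC libraries. PTPRCAP, which binds the phosphatase CD45, was at 35.6 and 36.8 CPM at day 10 and 1.76 and 2.74 CPM at day 5 (log2 change 4.01 ± 0.23, edgeR adjusted p = 0.000248, against a log2 change of 3.20 with the offsets), and it shares exons with CORO1B. EMC6, of the complex that inserts membrane proteins, was at 26.9 and 29.1 CPM at day 10 and 3.63 and 2.14 CPM at day 5. EMC6 rose, with a log2 change of 3.27 ± 0.26 (edgeR adjusted p = 0.000795). DPM3, of the enzyme that makes dolichol phosphate mannose, was at 15.02 and 14.8 CPM at day 10 and 1.63 and 2.14 CPM at day 5. DPM3 rose, with a log2 change of 2.98 ± 0.24 (edgeR adjusted p = 0.000824), against a log2 change of 2.22 with the offsets. ADAT3, of the transfer RNA deaminase, was at 13.7 and 14.1 CPM at day 10 and 1.900 and 1.54 CPM at day 5. ADAT3 rose, with a log2 change of 3.005 ± 0.24 (edgeR adjusted p = 0.000795), against a log2 change of 2.09 with the offsets, and it shares exons with SCAMP4. MIR142HG, the host transcript of a blood cell microRNA, was at 27.8 and 27.8 CPM at day 10 and 3.800 and 1.54 CPM at day 5 (log2 change 3.37 ± 0.36, edgeR adjusted p = 0.00156, against a log2 change of 2.70 with the offsets), with a log2 change of 4.17 without day 5 replicate 1.

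The other 6 of the 12 largest rises belong to families of close copies, between which reads may be split. BOLA2 and BOLA2B, copies of 1 gene on chromosome 16, had log2 changes of 4.73 ± 0.24 and 3.61 ± 0.51 (edgeR adjusted p = 0.00019 and 0.00289, against log2 changes of 3.94 and 2.89 with the offsets), and that of BOLA2B was 5.10 without day 5 replicate 1 and 2.92 without replicate 2. The ribosomal protein pseudogenes RPSAP47, RPS2P5 and RPL24P4 had changes of 4.78 ± 0.28, 3.03 ± 0.26 and 3.15 ± 0.37 (edgeR adjusted p = 0.000248, 0.000934 and 0.00201), RPS2P5 had one of 2.33 with the offsets, and RPL24P4 one of 3.90 without day 5 replicate 1. RN7SL2, an RNA of the signal recognition particle, was at 19.2 and 7.201 CPM at day 10 and 0.543 and 0.562 CPM at day 5 (log2 change 4.57 ± 0.52, edgeR adjusted p = 0.00184, against a log2 change of 3.83 with the offsets, and 3.71 without day 10 replicate 1).

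Antigen presentation genes rose. HLA class I molecules show peptides from inside the cell to CD8 T cells, and NLRC5 is the activator of their transcription. Of the list of class I and peptide loading genes 10 of 15 members rose and 2 fell, with a median log2 change of 1.02, and with the offsets 9 were higher and 0 lower, with a median of 0.48. Over all genes tested 18.9% were higher and 16.7% lower, and with the offsets 17.1% and 13.5%. HLA-B was at 132 and 131 CPM at day 10 and 59.4 and 42.2 CPM at day 5. HLA-B rose, with a log2 change of 1.36 ± 0.16 (edgeR adjusted p = 0.00205), against a log2 change of 0.67 with the offsets. HLA-F was at 9.28 and 11.1 CPM at day 10 and 2.51 and 1.84 CPM at day 5. HLA-F rose, with a log2 change of 2.22 ± 0.26 (edgeR adjusted p = 0.00201). PSMB9, a subunit of the immunoproteasome, was at 6.09 and 4.67 CPM at day 10 and 0.102 and 0.262 CPM at day 5 (edgeR adjusted p = 0.00108), where a level near 0.1 CPM is about 3 counts. HLA-C and NLRC5, named after their values were seen, had log2 changes of 1.02 ± 0.15 and 1.30 ± 0.21 (edgeR adjusted p = 0.00341 and 0.004, against 0.41 and 0.89 with the offsets). Class I genes are close copies of each other and highly variable, so reads may be split between them. The median GC content of this list was 57.7%, against 49.3% over all genes tested with a value.

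Receptors that guide lymphocytes fell. S1PR1, the receptor for sphingosine 1-phosphate, directs the exit of lymphocytes from lymph nodes, and KLF2 is a transcription factor known to activate it in T cells. Of 20 homing and adhesion genes 11 fell and 1 rose, with a median log2 change of -0.59, and with the offsets 0 were higher and 12 lower, with a median of -0.56. Over all genes tested 18.9% were higher and 16.7% lower, and with the offsets 17.1% and 13.5%. S1PR1 was at 5.77 and 6.98 CPM at day 10 and 16.3 and 14.2 CPM at day 5. S1PR1 fell, with a log2 change of -1.26 ± 0.20 (edgeR adjusted p = 0.00425). ITGA4, the alpha 4 integrin, was at 137 and 137 CPM at day 10 and 289 and 320.4 CPM at day 5. ITGA4 fell, with a log2 change of -1.15 ± 0.10 (edgeR adjusted p = 0.00101). PECAM1, an adhesion molecule of blood cells, was at 55.01 and 55.4 CPM at day 10 and 93.3 and 90.9 CPM at day 5 (log2 change -0.74 ± 0.11, edgeR adjusted p = 0.00315), and KLF2, named after its values were seen, at 12.2 and 15.02 CPM at day 10 and 26.9 and 22.3 CPM at day 5. KLF2 fell, with a log2 change of -0.86 ± 0.18 (edgeR adjusted p = 0.00997), against a log2 change of -1.67 with the offsets. Without day 10 replicate 1 the calls of PECAM1 and KLF2 were lost (edgeR adjusted p = 0.0534 and 0.14).

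Genes of cytotoxic lymphocytes were among those that rose. EOMES, a T-box factor of cytotoxic lymphocytes, was at 291 and 289 CPM at day 10 and 120.2 and 127 CPM at day 5 in sh-SH2D1A cells, against 62.1 and 64.9 CPM at day 10 and 36.1 and 29.9 CPM at day 5 in sh-NC cells (log2 change 1.22 ± 0.10, edgeR adjusted p = 0.000824 in the knockdown arm). The lowest knockdown library was above the highest control library on each day. GZMM, granzyme M, was at 24.7 and 24.8 CPM at day 10 and 5.700 and 3.26 CPM at day 5 (log2 change 2.46 ± 0.26, edgeR adjusted p = 0.00158, against a log2 change of 1.61 with the offsets), and GZMH, granzyme H, at 9.73 and 11.96 CPM at day 10 and 1.76 and 2.099 CPM at day 5. GZMH rose, with a log2 change of 2.49 ± 0.25 (edgeR adjusted p = 0.00141). Of 16 effector and cytotoxic genes tested 7 rose and 1 fell, with a median of 0.67, and with the offsets 5 were higher and 1 lower, with a median of 0.45. Of the 21 members of this list 8 were below 1 CPM in all 4 knockdown libraries. Checkpoint receptors had 0 rise and 1 fall among 9 tested. Over all genes tested 18.9% were higher and 16.7% lower, and with the offsets 17.1% and 13.5%. In sh-NC cells 6 of 13 effector and cytotoxic genes tested rose and 1 fell, with a median of 0.52. There 22.9% of all genes tested rose and 22% fell.

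SAP binds the tails of the SLAM family. In the list of SLAM receptors and partners 4 of 16 rose and 3 fell, with a median of -0.07, which is near the shares over all genes tested of 18.9% higher and 16.7% lower. SLAMF7, also called CRACC, was at 6.73 and 6.64 CPM at day 10 and 1.87 and 1.35 CPM at day 5 in sh-SH2D1A cells (log2 change 2.05 ± 0.28, edgeR adjusted p = 0.00268), against 1.17 and 0.895 CPM at day 10 and 1.91 and 1.85 CPM at day 5 in sh-NC cells. LY9, also called SLAMF3, was at 8.71 and 8.19 CPM at day 10 and 4.31 and 3.94 CPM at day 5 (log2 change 1.03 ± 0.22, edgeR adjusted p = 0.0105), a call lost without day 10 replicate 1 (edgeR adjusted p = 0.0671). CD84 was at 35.8 and 32.7 CPM at day 10 and 88.7 and 93.03 CPM at day 5. CD84 fell, with a log2 change of -1.41 ± 0.12 (edgeR adjusted p = 0.000922). SLAMF6 was at 9.695 and 11.2 CPM at day 10 and 24.5 and 23.95 CPM at day 5. SLAMF6 fell, with a log2 change of -1.22 ± 0.16 (edgeR adjusted p = 0.00262).

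T cell receptor and thymocyte genes were counted in 3 lists. Of 30 genes of the receptor apparatus 5 rose and 8 fell, beside 18.9% higher and 16.7% lower over all genes tested. TRAC, the alpha chain constant gene, was at 41.4 and 36.4 CPM at day 10 and 69.9 and 75.4 CPM at day 5 (log2 change -0.90 ± 0.13, edgeR adjusted p = 0.00284), TRBC2, a beta chain constant gene, at 55.5 and 47.5 CPM at day 10 and 25.8 and 18.5 CPM at day 5 (log2 change 1.22 ± 0.18, edgeR adjusted p = 0.00341), and CD247, the zeta chain, at 50.04 and 47.3 CPM at day 10 and 28.2 and 23.2 CPM at day 5. CD247 rose, with a log2 change of 0.92 ± 0.14 (edgeR adjusted p = 0.00383). TRBC2 has a close copy, TRBC1. Of 17 pre-T cell receptor and recombination genes 3 rose and 4 fell. DNTT, the polymerase that adds untemplated bases to receptor joints, was at 1.12 and 1.73 CPM at day 10 and 7.67 and 5.96 CPM at day 5 (log2 change -2.26 ± 0.32, edgeR adjusted p = 0.00284), and LIG4, the ligase that seals them, at 24.4 and 22.7 CPM at day 10 and 63.8 and 75.1 CPM at day 5. LIG4 fell, with a log2 change of -1.56 ± 0.14 (edgeR adjusted p = 0.000963), against a log2 change of -0.82 with the offsets. The thymocyte molecules CD1B and CD1E were at 14.3 and 17.5 CPM at day 10 and 36.2 and 40.1 CPM at day 5 and at 27.9 and 27.8 CPM at day 10 and 53.4 and 57.1 CPM at day 5 (log2 change -1.27 ± 0.16 and -0.99 ± 0.12, edgeR adjusted p = 0.00227 and 0.00225). Among 23 leukaemia transcription factors 3 rose and 7 fell. LEF1 and IKZF2 had log2 changes of -0.83 ± 0.09 and -1.15 ± 0.12 and TCF3 one of 0.98 ± 0.15 (edgeR adjusted p = 0.00167, 0.00141 and 0.00373, against -0.94, -0.54 and 0.36 with the offsets).

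Replication and division genes were counted apart. Of 41 S phase genes 12 rose and 2 fell, and of 41 mitosis genes 2 rose and 16 fell, beside 18.9% higher and 16.7% lower over all genes tested. With the offsets the S phase counts were 17 and 1 and the mitosis counts 7 and 10, beside 17.1% higher and 13.5% lower over all genes tested. In sh-NC cells, without the offsets, 10 S phase genes rose and 14 fell, and 2 mitosis genes rose and 29 fell. There 22.9% of all genes tested rose and 22% fell. The mitosis median was -0.22 in knockdown cells and -0.45 in sh-NC cells. The median GC content of the mitosis list was 43.6%. MCM7, of the replicative helicase, was at 528 and 511 CPM at day 10 and 305 and 267 CPM at day 5 (log2 change 0.86 ± 0.10, edgeR adjusted p = 0.00208), and POLD1, a DNA polymerase, at 214 and 212 CPM at day 10 and 118 and 98.99 CPM at day 5. POLD1 rose, with a log2 change of 0.97 ± 0.12 (edgeR adjusted p = 0.00212), against a log2 change of 0.27 with the offsets. ANLN and KIF23, which act in cell separation, had log2 changes of -1.09 ± 0.14 and -0.97 ± 0.13 (edgeR adjusted p = 0.00221 and 0.00258). HMMR, a spindle protein, and ECT2, which places the cleavage furrow, had changes of -0.82 ± 0.14 and -0.79 ± 0.11 (edgeR adjusted p = 0.00457 and 0.00262), and both calls were lost with the offsets (-0.17 and -0.14, edgeR adjusted p = 0.0802 and 0.0945).

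Activation genes were counted as well. CD69, an early activation marker, was at 2.49 and 1.67 CPM at day 10 and 7.26 and 8.85 CPM at day 5 (log2 change -1.96 ± 0.29, edgeR adjusted p = 0.00324), JUNB, an AP-1 subunit, at 37.8 and 34.8 CPM at day 10 and 17.4 and 12.4 CPM at day 5 (log2 change 1.28 ± 0.19, edgeR adjusted p = 0.00315, against a log2 change of 0.55 with the offsets), and SPRY2, a feedback inhibitor of the ERK pathway, at 26.98 and 28.00 CPM at day 10 and 13.5 and 13.2 CPM at day 5. SPRY2 rose, with a log2 change of 1.04 ± 0.15 (edgeR adjusted p = 0.0029). Targets of ERK and immediate early genes had 5 rises and 4 falls among 24, near the 18.9% higher and 16.7% lower over all genes tested. Of NF-kB subunits and targets 10 of 17 rose and 2 fell, with a median of 0.50, and with the offsets 6 were higher and 3 lower, with a median of 0.01. Actin and matrix genes had 9 rises and 1 fall among 23, and with the offsets 4 and 6.

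The remaining lists were counted in the same way, beside the same 18.9% and 16.7%. Of 15 BCL2 family genes 9 rose and 0 fell (median 0.69), and of 18 redox genes 8 rose and 1 fell. Of 24 p53 targets 7 rose and 6 fell, and of 28 interferon response genes 6 rose and 4 fell. Lysosome and autophagy genes had 8 rises and 4 falls among 26, which became 1 and 8 with the offsets. NOTCH receptors and targets had 2 rises and 2 falls among 19, and cytokine feedback genes 3 and 3 among 20. With the offsets these became 1 and 5 for NOTCH genes and 3 and 6 for cytokine feedback genes. The offset counts were 9 and 1 for the BCL2 family (median 0.45), 11 and 3 for redox genes, 6 and 6 for p53 targets and 7 and 2 for interferon response genes. With the offsets 17.1% of all genes tested were higher and 13.5% lower. Histone, annexin, sterol export and chitinase family genes had between 1 and 2 rises and between 0 and 2 falls each, among 14, 8, 10 and 4 tested. None of the 5 HLA class II genes tested passed.

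**Figure D4:**
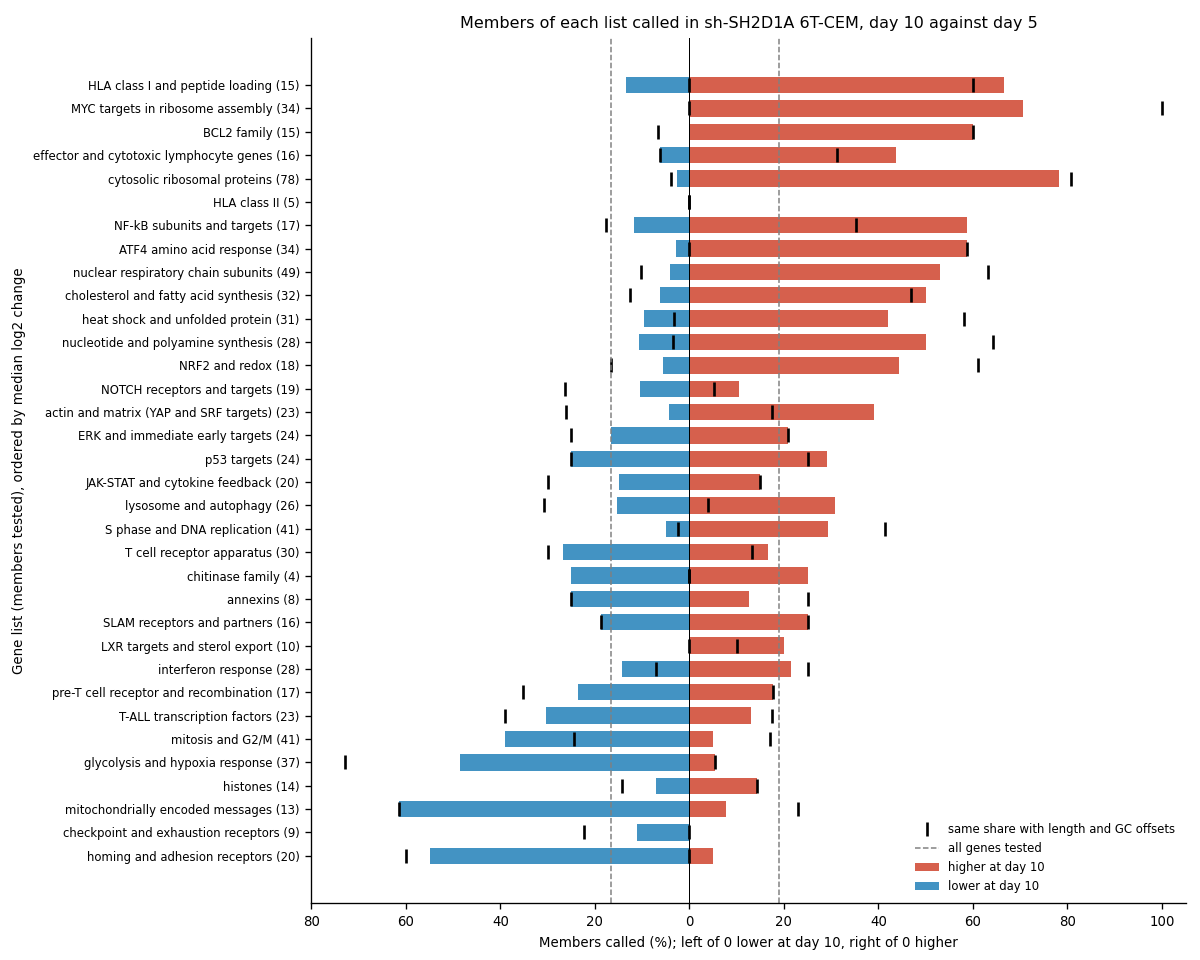
Share of each gene list's tested members called higher (red, right) or lower (blue, left) at day 10 in sh-SH2D1A 6T-CEM, ordered by median log2 change, with the number tested in brackets. Black ticks give the shares with the length and GC offsets and dashed lines the shares over all genes tested, 18.9% higher and 16.7% lower.

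The last comparison asks which genes moved differently in the knockdown cells than in the control cells. Of 20978 genes tested 1 differed at an edgeR adjusted p under 0.05 (0.00477% of genes tested), and 2157 did at an unadjusted p under 0.05. DESeq2 called 134 genes upward (0.639%) and 84 downward (0.4%), sh-SH2D1A minus sh-NC. With the offsets edgeR called 266 (1.27%) and 185 (0.882%), together 2.15% of genes tested, of which 166 were also called by DESeq2 in the same direction. Leaving out a day 5 sh-SH2D1A library takes the spread of that pair, the widest, out of the fit, which bears on the next counts. Without day 5 sh-SH2D1A replicate 1 edgeR called 931 and 545, and without replicate 2 it called 131 and 57, while leaving out any of the other 6 libraries gave 1 to 3 upward and 0 to 10 downward.

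The gene called was CDHR1 (ENSG00000148600, chr10:84194635-84219621), a photoreceptor cadherin. It was at 33.7 and 34.00 CPM at day 10 and 29.6 and 27.5 CPM at day 5 in sh-SH2D1A cells, against 12.99 and 12.7 CPM at day 10 and 60.9 and 55.98 CPM at day 5 in sh-NC cells. The day 10 control libraries were lowest and the day 5 control libraries highest. The change in knockdown cells did not pass (log2 change 0.24 ± 0.13, edgeR adjusted p = 0.183). It passed with all 16 libraries in the fit (0.21, edgeR adjusted p = 0.0491). Without day 5 replicate 1 the change was 0.29, and with the offsets it was 0.024 (edgeR adjusted p = 0.859). CDHR1 fell in control cells (-2.18 ± 0.10, edgeR adjusted p = 9.54e-06), and the difference was 2.43 ± 0.15 (edgeR adjusted p = 0.00068).

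For the genes that follow, EOMES apart, the difference missed the threshold in the edgeR fit of the 8 libraries but passed with DESeq2 and with the offsets. With all 16 libraries in the edgeR fit it passed too, but not for GZMM, KLF2 and EOMES. The genes JUN, NOTCH3, THEMIS, HLA-C, NLRC5 and KLF2 were named after their values were seen. HLA-B had a log2 change of 1.36 ± 0.16 in knockdown cells and -0.06 ± 0.07 in control cells (-0.65 with the offsets, edgeR adjusted p = 8.79e-05), where it was at 79.95 and 78.97 CPM at day 10 and 88.00 and 78.3 CPM at day 5, and a difference of 1.43 ± 0.20 (edgeR adjusted p = 0.108, DESeq2 adjusted p = 5.75e-10). HLA-C and NLRC5 had differences of 0.89 ± 0.18 and 1.16 ± 0.26 (edgeR adjusted p = 0.141 and 0.186), and of the class I list 6 of 15 members were called upward and 0 downward with the offsets, beside 1.27% and 0.882% of all genes tested. DESeq2 called 5 of the class I list upward and 0 downward, beside 0.639% and 0.4% of all genes tested, and edgeR without the offsets called 0. GZMM and SLAMF7 differed by 2.11 ± 0.36 and 2.92 ± 0.39 (edgeR adjusted p = 0.111 and 0.108), and SPRY2 by 1.09 ± 0.19 (edgeR adjusted p = 0.111). EOMES had a log2 change of 1.22 ± 0.10 in knockdown and 0.95 ± 0.10 in control cells, and its difference of 0.28 ± 0.13 did not pass (edgeR adjusted p = 0.504) in any alternative.

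In JUN, NOTCH3 and THEMIS the control cells changed most. JUN, an AP-1 subunit, was at 29.02 and 32.1 CPM at day 10 and 26.8 and 19.3 CPM at day 5 in sh-SH2D1A cells, against 18.1 and 18.5 CPM at day 10 and 44.7 and 37.04 CPM at day 5 in sh-NC cells (difference 1.57 ± 0.23, edgeR adjusted p = 0.108). NOTCH3 was at 75.2 and 74.6 CPM at day 10 and 80.9 and 58.1 CPM at day 5 in sh-SH2D1A cells, against 45.6 and 49.2 CPM at day 10 and 112 and 97.4 CPM at day 5 in sh-NC cells (difference 1.25 ± 0.20, edgeR adjusted p = 0.108), and its change within the knockdown cells, 0.10 ± 0.16, turned to -0.51 with the offsets. THEMIS, a regulator of T cell receptor signalling in thymocytes, was at 20.7 and 21.6 CPM at day 10 and 27.8 and 38.5 CPM at day 5 in sh-SH2D1A cells, against 10.7 and 10.7 CPM at day 10 and 37.6 and 38.5 CPM at day 5 in sh-NC cells (difference 1.18 ± 0.22, edgeR adjusted p = 0.126). The fall of THEMIS in knockdown cells (-0.65 ± 0.18, edgeR adjusted p = 0.0271) was lost without either day 10 library (0.184 and 0.128), without the filter (0.0948) and with the offsets (0.94).

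Among falls, S1PR1 and KLF2 differed by -1.01 ± 0.23 and -0.96 ± 0.24 (edgeR adjusted p = 0.207 and 0.226), and their control changes, -0.24 ± 0.14 and 0.12 ± 0.13, did not pass (edgeR adjusted p = 0.216 and 0.516), and that of KLF2 turned to -0.43 with the offsets (edgeR adjusted p = 0.0155). CD84 fell in both arms, by a log2 change of -1.41 ± 0.12 in knockdown and -0.70 ± 0.06 in control cells, with a difference of -0.70 ± 0.11 (edgeR adjusted p = 0.108). Of the homing list 0 of 20 members were called upward and 4 downward with the offsets. For hypoxia genes the offsets called 4 upward and 2 downward among 38, for ribosome assembly genes 0 and 4 among 34, and for cholesterol and fatty acid genes 11 and 0 among 32, beside 1.27% upward and 0.882% downward over all genes tested. Without the offsets edgeR called 0 members of these lists and of the homing list. DESeq2 called 0 and 4 homing, 3 and 0 hypoxia, 0 and 0 ribosome assembly and 4 and 0 cholesterol and fatty acid genes, beside 0.639% and 0.4% of all genes tested.

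**Figure D5:**
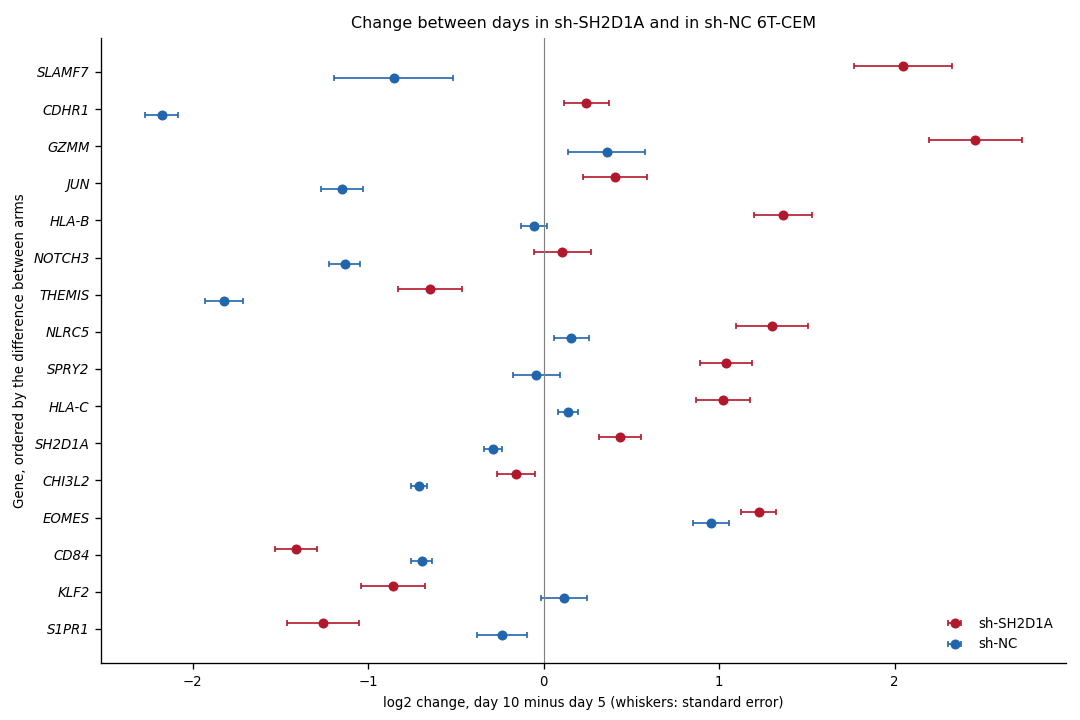
log2 change from day 5 to day 10 (horizontal axis, whiskers the standard error) in sh-SH2D1A (red) and sh-NC (blue) 6T-CEM for 16 genes, ordered by the difference between the arms. SLAMF7 and CDHR1 stand at the top, with changes of 2.05 and 0.24 in sh-SH2D1A against -0.85 and -2.18 in sh-NC cells, and S1PR1 and KLF2 at the bottom.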

How the data were processed

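Jurkat and 6T-CEM total RNA was extracted with TRIzol, made into TruSeq libraries and run on a NovaSeq instrument, per the labels. HISAT2 2.2.0, StringTie and the build hg38 are named in the submitters' processing notes. The authors deposited whole-number counts per Ensembl gene, not normalised, in 4 tables of 64252 identifiers, 1 for each line and day. Which annotation, strand setting and counting step were used is not given in the sources used here, so reads of overlapping genes cannot be assigned by strand. Of the identifiers 40995 have a symbol. Positions, exon sharing, length and GC content come from GENCODE 29, which holds 56591 of them.

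The tables of 6T-CEM were joined by identifier. Genes were filtered with filterByExpr at a minimum count of 10, scaled by TMM and tested, two-sided, by the quasi-likelihood method of edgeR 4.0.16 (glmQLFit and glmQLFTest) in R 4.3.3. Adjustment was by Benjamini-Hochberg over all genes tested, with calls at an adjusted p under 0.05. Each arm was fitted on its 4 libraries, and the difference on 8 libraries with 4 group means. The standard error is the absolute log2 change over the square root of F. The fits were also run on simulated counts. These had no dependence on GC content and the same dispersion in all groups, so that run does not cover these features of the data. Alternatives were the size factors and the Wald test of DESeq2 1.42.0, no filter, the replicate number as a block, 8 or 16 libraries fitted together, a threshold of 2-fold, and leaving out each library. A fit without 1 library leaves 1 in its group, so that group adds no spread and the calls rest on the spread of the others. The fit with offsets was added after the data were seen. Its offsets are lowess smooths (span 0.3) of each library on length and GC content, fitted in turn 4 times, and 93.2% of tested genes had both values.

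The rule named SH2D1A and CHI3L2, the 12 largest rises and falls with at least 10 CPM on the higher day and no overlap between days, 8 differences each way, 6 abundant genes each way, and up to 4 members of each of 34 lists with the lowest adjusted p. In the text 7 genes outside it are marked, and some genes that it named are not reported here. The 34 lists, the 6 marker lists and the comparisons were chosen with earlier results of these data known. Promoters are RefSeq sequences of GRCh38.p14.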

Additional observations from a re-analysis of the deposited data

Results flagged for a closer look

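CDHR1 was marked because its change between the days differed between the arms by the test of the difference itself. The log2 difference, sh-SH2D1A minus sh-NC, was 2.43, with 33.7 and 34.00 CPM at day 10 and 29.6 and 27.5 CPM at day 5 in sh-SH2D1A cells, against 12.99 and 12.7 CPM at day 10 and 60.9 and 55.98 CPM at day 5 in sh-NC cells. It was the only gene of 20978 to pass in the edgeR fit of the 8 libraries.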

How the results depend on the processing

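In knockdown cells the calls numbered 2324 higher and 1786 lower without the filter on low counts, and 1471 and 809 at 2-fold or more. Leaving out 1 library gave 2040 to 6022 higher and 977 to 5249 lower, and in control cells 3302 to 5075 higher and 3032 to 4737 lower. The difference of the arms had 1 to 931 upward and 0 to 545 downward calls when 1 library was left out, 134 and 84 with DESeq2, 89 and 61 with 16 libraries and 266 and 185 with the offsets.

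The SH2D1A change in knockdown cells was 0.45 on the log2 scale without the filter and 0.35 to 0.51 with 1 library left out, and in control cells -0.34 to -0.24, and -0.10 with the offsets. Its difference was 0.72 with DESeq2, 0.72 with 16 libraries, 0.86 with the offsets and 0.62 to 0.82 with 1 library left out. CHI3L2 changed by -0.20 with 16 libraries and by -0.24 to -0.071 with 1 library left out in knockdown cells, and by -0.72 to -0.69 in control cells. Its difference was 0.55 with DESeq2 and with 16 libraries, 0.60 with the offsets and 0.44 to 0.65 with 1 library left out.

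Directions turned with the offsets for ACTB (-0.19) and NOTCH3 (-0.51) in knockdown cells and for HLA-C (-0.33), NLRC5 (-0.11), KLF2 (-0.43), GZMM (-0.27) and SPRY2 (0.029) in control cells. With 1 library left out they turned for NOTCH3 in knockdown cells (-0.11 to 0.36) and for HLA-B (-0.13 to 0.027), KLF2 (-0.038 to 0.29) and SPRY2 (-0.17 to 0.093) in control cells. The causes were not tested.

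Deviations of equal replicate numbers correlated at 0.02 to 0.06 across genes. This cannot decide whether the numbers pair the libraries, since the day 5 knockdown pair differs by GC content and the day 10 pair hardly does. The replicate block gave 4336 higher and 3564 lower calls in knockdown cells, 1 difference upward and 0 downward, and it ended the call of ACTB.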
